A study of Saccharomyces cerevisiae with 58 samples.

Results

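The G1 and Pho85 cyclins of Start examined here are the 4 genes CLN1, CLN2, PCL1 and PCL2 of budding yeast, taken by gene symbol from the array's annotation out of 5449 named genes. Each was read by 1 probe set. The rule uses gene names and no measured value, but the genes and the time windows below were picked with earlier results of these data known. RNA was hybridised to 58 Affymetrix arrays, each of them 1 time point of 1 culture. The wild-type cultures (28 arrays) were of strain BF264-15DU, mating type a, with bar1. The mutant cultures (30 arrays) were of the same background and mating type and carried disruptions of the 6 B-type cyclin genes, namely clb5::ARG4 and clb6::APE1 (S-phase cyclins), clb3::TRP1 and clb4::HIS2, and the mitotic clb1::URA3 and clb2::LEU2, together with GAL1-CLB1:LEU2, a copy of CLB1 under the galactose-inducible GAL1 promoter. The label of the mutant does not list bar1, and whether the strains also differ there was not tested. There were 2 cultures per strain. Small early G1 cells were collected by elutriation, put into dextrose medium with 1 M sorbitol at 30 °C and sampled every 16 min, from 30 to 254 min in wild-type culture 1 and mutant culture 2, and from 38 to 262 min in wild-type culture 2 and mutant culture 1.

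A yeast cell commits to division at Start, late in G1. Cln1 and Cln2 are G1 cyclins that activate the cyclin-dependent kinase Cdc28 there, and Pcl1 and Pcl2 are cyclins of another kinase, Pho85, active in the same interval. Their genes are classic targets of SBF (Swi4 with Swi6), a factor that switches on late G1 transcription. PCL2 is also known as a target of Swi5, a factor that acts as cells leave mitosis. B-type cyclins with Cdc28 drive DNA replication and mitosis, and in dividing cells they also act to turn SBF-driven transcription off.

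Values are log2(intensity + 1), on which 1 unit is a 2-fold difference in probe set intensity. The median over all genes lay between 10.79 and 10.92 on every array. Consecutive time points correlated with r of 0.976 to 0.999 over all genes once 62 min had passed, and with r of 0.899 to 0.983 earlier, when the arrays differed most from those that followed. The 95th percentile of probe sets designed for another species, 9.06, served as a background level. Of the disrupted genes, CLB2, CLB3 and CLB4 lay below it on 30 of 30 mutant arrays, whereas CLB1, CLB5 and CLB6 lay below it on 0 of 30. The positions of probes relative to the disruptions were not analysed here, so those 3 probe sets do not check the labels. The a-cell markers (STE2, MFA1, MFA2, STE6, AGA2) were above background on average in both strains, 5 of 5, and as a sum they ran from 30549 to 58276 intensity units in the wild type and from 8082 to 59780 in the mutant. The alpha-cell markers were above background for 2 of 4 and the meiotic markers for 1 of 7. In these bulk samples a different share of cells in a cell-cycle stage and a different amount of RNA per cell cannot be told apart.

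CLN1, CLN2 and PCL1 passed the test as higher in the mutant once the first wave was over, by 0.91 to 1.53 log2 units at 126 to 166 min. PCL2, with 0.16 units, did not pass. During the first wave, at 62 to 118 min, the 4 genes were already higher by 0.48 to 0.75 units, and none passed. In the wild type all 4 genes rose to a first peak at 94 or 102 min, fell, and came up again. In the mutant the first peak came at the same sampled times, except for PCL2 in culture 2 at 78 min. After it CLN1 and CLN2 came down to 54.8% to 58.2% of their peak intensity, PCL1 came down further and climbed back, and PCL2 settled at a level close to that of the wild type.

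CLN2 illustrates the course. In wild-type culture 1 it stood at 8.21 at 30 min, 9.14 at 62 min, 11.30 at 78 min and 11.87 at 94 min, dropped to 9.33 at 142 min and was back at 11.16 at 190 min. In wild-type culture 2 it stood at 8.38 at 38 min, 12.12 at 102 min, 9.89 at 150 min and 11.37 at 214 min. In mutant culture 1 it went from 8.34 at 38 min to 12.38 at 102 min, then to 11.52 at 150 min and 11.95 at 246 min. In mutant culture 2 it went from 8.43 at 30 min to 12.54 at 94 min, then to 11.76 at 158 min and 12.21 at 254 min. The 4 cultures started between 8.21 and 8.43 and peaked between 11.87 and 12.54, and the trough after it was deep in both wild-type cultures and shallow in both mutant cultures. From 142 to 158 min the lowest mutant value, 11.52, was above the highest wild-type value, 10.30.

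CLN1, the close relative of CLN2, followed the same course at a lower signal, though signals of different probe sets are not comparable as levels. In wild-type cultures 1 and 2 it peaked at 11.22 and 11.14, reached 9.13 and 9.17 at the trough, and from 190 min on moved between 9.97 and 10.41. In mutant cultures 1 and 2 it peaked at 11.78 and 11.87, its lowest later values were 10.96 and 11.06, and it ended at 11.34 and 11.37. No mutant array from 126 min on was as low as the highest wild-type array of that period.

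PCL1, which encodes a Pho85 cyclin, fell furthest in the wild type, from 11.63 to 8.76 in culture 1 and from 11.56 to 8.81 in culture 2. Both trough values lie under the background level, so the depth of that fall is, if anything, understated. In the mutant PCL1 went from 11.73 to 9.94 in culture 1 and from 11.98 to 10.30 in culture 2, then climbed to 11.59 and 11.86. The late mutant values were close to the first peak, and the late wild-type values, 9.90 to 10.07 from 222 min on, were well below it.

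PCL2, a second Pho85 cyclin gene, had the smallest range of the 4. In the wild type it peaked at 9.85 in culture 1 and 10.08 in culture 2, dipped to 9.02 at 126 min and 9.10 at 134 min, and peaked again at 10.09 at 158 min and 10.16 at 166 min. In mutant cultures 1 and 2 it peaked at 10.34 and 10.43 and then moved between 9.57 and 9.96 from 142 min on. The wild type had 2 clear maxima and the mutant 1.

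**Figure D1:**
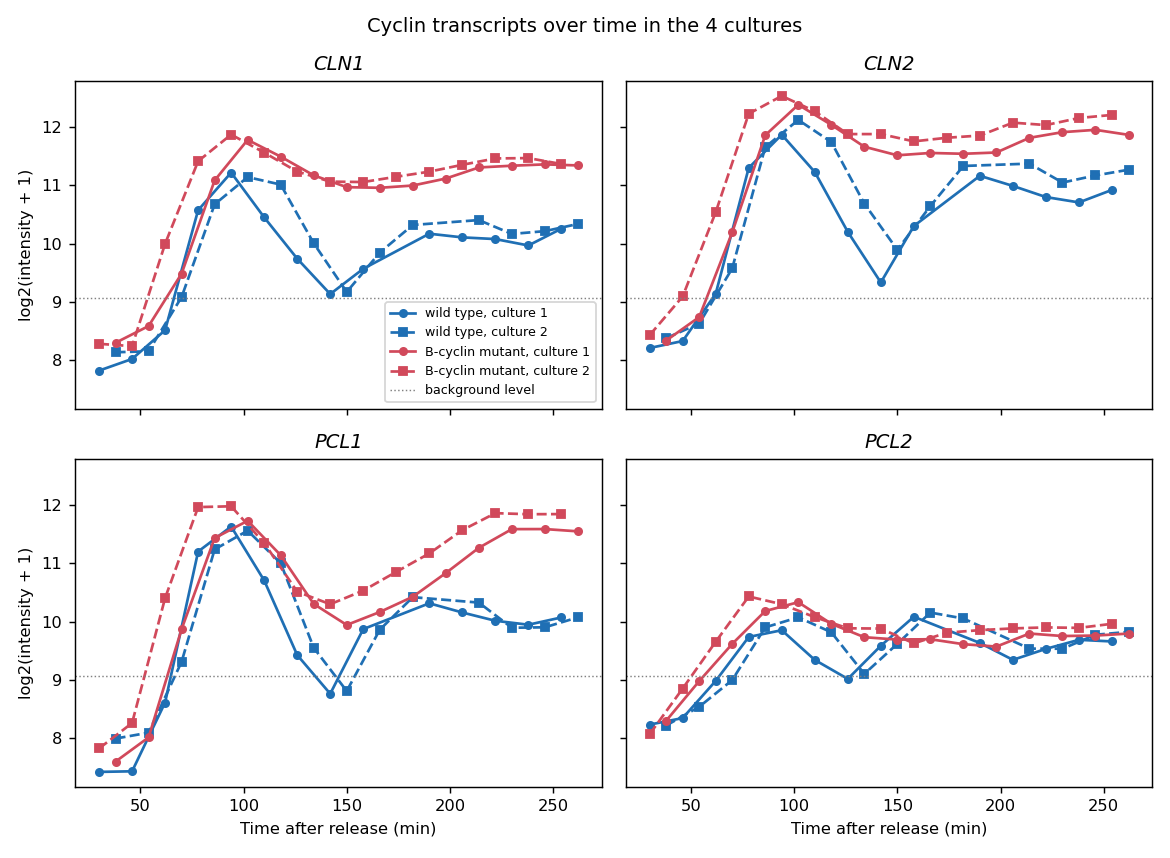
Level of each cyclin transcript, log2(intensity + 1), against time after release in minutes, for 2 wild-type cultures (blue) and 2 mutant cultures (red), each point 1 array, with the background level of 9.06 as a dotted line. The deep trough of CLN1, CLN2 and PCL1 in the wild type at 142 to 150 min is shallow in the mutant, and PCL2 has a second peak at 158 to 166 min in the wild type.

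The strains covered largely overlapping spans of values over the whole course but differed in their medians. Over 28 wild-type arrays CLN1 ran from 7.82 (median 10.09) to 11.22, and over 30 mutant arrays from 8.24 (median 11.20) to 11.87. CLN2 ran from 8.21 (median 10.86) to 12.12 in the wild type and from 8.34 (median 11.86) to 12.54 in the mutant. For both genes the lowest and highest values were higher in the mutant too, but by less than the medians, which were higher by about 1 unit. PCL1 ran from 7.42 (median 9.93) to 11.63 in the wild type and from 7.60 (median 11.00) to 11.98 in the mutant. PCL2 ran from 8.22 (median 9.60) to 10.16 in the wild type and from 8.07 (median 9.80) to 10.43 in the mutant, and its medians were the closest of the 4. Wild-type PCL1 was above background on 21 of 28 arrays and wild-type PCL2 on 21 of 28, against 26 of 30 mutant arrays for each.

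Levels were compared on culture means (n = 2 per strain) with limma over all 5449 genes and Benjamini-Hochberg adjustment. Over the whole course CLN1 averaged 9.80 in the wild type against 10.78 in the mutant, a difference of 0.98 ± 0.10 (SE; limma adjusted p = 0.00156). CLN2 was higher by 0.87 ± 0.14 (limma adjusted p = 0.011) and PCL1 by 0.87 ± 0.13 (limma adjusted p = 0.00749). PCL2 differed by 0.26 ± 0.09, which did not pass the threshold (limma adjusted p = 0.111). Thus 3 of 4 members passed, where 5.69% of all genes were called higher in the mutant and the median difference over all genes was 0.016. Ranked by this difference from the highest of 5449, CLN1 was 26th, PCL1 36th, CLN2 39th and PCL2 657th.

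The early part of the course gave no call. At 30 to 54 min the 4 genes differed by 0.19 to 0.32, with adjusted p from 0.71 to 0.844, and 0.0734% of all genes were called higher. During the first wave, 62 to 118 min, all 4 differences were positive, 0.75 ± 0.13 for CLN1, 0.68 ± 0.15 for CLN2, 0.58 ± 0.15 for PCL1 and 0.48 ± 0.11 for PCL2, and none passed (limma adjusted p from 0.0732 to 0.197). Few genes did so in that window, 0.404% of all genes being called higher. From the highest of 5449, the differences of CLN1, CLN2, PCL1 and PCL2 ranked 25th, 30th, 37th and 52nd. This window rests on single cultures: without mutant culture 1, 3 of the 4 cyclin genes passed, and without wild-type culture 2, 2 did.

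Between the waves, at 126 to 166 min, CLN1 and CLN2 differed most. CLN1 averaged 9.58 in wild-type cells and 11.08 in the mutant (difference 1.5 ± 0.10, limma adjusted p = 0.000909). CLN2 averaged 10.18 and 11.71 (difference 1.53 ± 0.18, limma adjusted p = 0.00648). They ranked 14th and 12th of 5449 genes from the highest. PCL1 averaged 9.38 and 10.29 (difference 0.91 ± 0.12, limma adjusted p = 0.00914), but without wild-type culture 1 its adjusted p was 0.0627. PCL2 averaged 9.60 and 9.75 (difference 0.16 ± 0.08, limma adjusted p = 0.225). In this window 9.36% of all genes were called higher.

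At 174 to 214 min, when the wild type was in its second wave, the differences were smaller for CLN1 (0.97 ± 0.12, limma adjusted p = 0.00384) and CLN2 (0.61 ± 0.14, limma adjusted p = 0.0293), and PCL1 differed by 0.80 ± 0.18 (limma adjusted p = 0.0249). PCL2 differed by 0.14 ± 0.13 (limma adjusted p = 0.448). The share of all genes called higher was 15.8%. The calls of CLN2 and PCL1 were lost without wild-type culture 1 (adjusted p = 0.2 and 0.151) and without wild-type culture 2 (adjusted p = 0.0746 and 0.1).

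At 222 to 262 min PCL1 had moved to the front. It averaged 9.99 in the wild type against 11.71 in the mutant, a difference of 1.73 ± 0.12 (limma adjusted p = 0.000704) that ranked 45th of 5449. CLN1 averaged 10.17 and 11.39 (difference 1.22 ± 0.10, limma adjusted p = 0.00107). CLN2 averaged 10.99 and 12.02 (difference 1.04 ± 0.15, limma adjusted p = 0.00569). PCL2 averaged 9.67 and 9.85 and did not pass (difference 0.17 ± 0.10, limma adjusted p = 0.22). By then the strains differed broadly, with 19.0% of all genes called higher in the mutant.

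**Figure D2:**
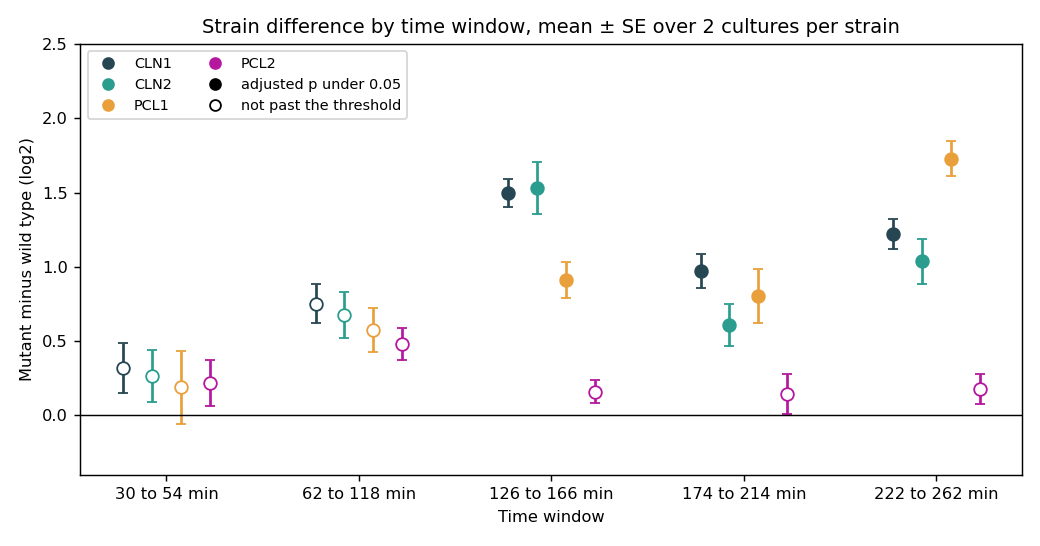
Mutant minus wild-type difference in level (log2) of each gene in 5 consecutive time windows, mean ± SE over 2 cultures per strain. Filled points passed an adjusted p of 0.05 across all genes, and CLN1 and CLN2 stand highest at 126 to 166 min, PCL1 at 222 to 262 min, while PCL2 is at or under 0.48 throughout.

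The arrays behind the culture means were also compared minute by minute. The pairs come from 2 pairs of cultures, so they are not replicates and add no separate evidence. Across 28 matched pairs the mutant was higher in 28 for CLN1, with differences from 0.16 at 38 min to 1.93 at 142 min. For CLN2 it was higher in 27 of 28, from -0.04 at 38 min to 2.55 at 142 min. For PCL1 it was higher in 26 of 28, from -0.40 at 38 min to 1.90 at 238 min. PCL2 was the exception, higher in 22 of 28, with its extremes at 126 min (0.87) and 166 min (-0.46). CLN1 and CLN2 were thus furthest apart at the wild-type trough, PCL1 late in the course, and PCL2 changed sign as its wild-type second peak came and went.

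The change from the first wave (62 to 118 min) to the interval after it (126 to 166 min) was compared between strains directly, with each culture as its own baseline. CLN2 changed by -0.90 in wild-type cells and -0.05 in the mutant, a difference of 0.85 ± 0.06 (limma adjusted p = 0.00248). CLN1 changed by -0.76 and -0.01, a difference of 0.75 ± 0.08 (limma adjusted p = 0.00888). PCL1 changed by -1.28 and -0.94, and the difference of 0.34 ± 0.08 did not pass (limma adjusted p = 0.0517). PCL2 went the other way, with 0.01 in the wild type against -0.32 in the mutant (difference -0.32 ± 0.07, limma adjusted p = 0.042). The later window holds both the wild-type dip of PCL2, at 126 or 134 min, and its second peak, at 158 or 166 min. The wild-type value thus averages a fall and a rise and does not measure the fall alone. From first peak to trough PCL2 changed by -0.84 and -0.97 in wild-type cultures 1 and 2. In mutant cultures 1 and 2 it changed by -0.76 and -0.81. A less negative change in the mutant was called for 11.1% of all genes and a more negative one for 6.61%. All 3 calls were lost without wild-type culture 1 (adjusted p from 0.0585 to 0.149) and without wild-type culture 2 (adjusted p from 0.0541 to 0.117), and that of PCL2 also without either mutant culture (0.0731 and 0.0569), though each of these differences kept its direction.

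Taking the lowest array after the first peak, the trough was shallower in both mutant cultures than in both wild-type cultures for all 4 genes, with a wide gap for CLN1, CLN2 and PCL1 and a narrow one for PCL2. CLN1 at its trough held 23.6% and 25.5% of its first-peak intensity in wild-type cultures 1 and 2, and 56.6% and 56.8% in mutant cultures 1 and 2. CLN2 held 17.2% and 21.3% in wild-type cells and 54.8% and 58.2% in the mutant. In the mutant both G1 cyclin genes thus kept at least 54.8% of their peak intensity. PCL1 held 13.7% and 14.8% in the wild type against 29.0% and 31.2% in the mutant, a deeper drop in the mutant than that of CLN1 or CLN2. PCL2 held 56.0% and 51.0% in wild-type cells and 59.0% and 57.2% in the mutant, the nearest of which lie close together. Its wild-type troughs, 9.02 and 9.10, lie near the background level, so their depth may be understated. Its mutant troughs, at 198 and 158 min, are the lowest arrays of a plateau.

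The return after the trough gave a different order. PCL1 regained 1.55 and 1.61 log2 units in wild-type cultures 1 and 2 and 1.65 and 1.56 in mutant cultures 1 and 2, but the wild-type troughs lie under the background level, so the wild-type values are lower bounds and the sizes of the climbs cannot be compared. Its second peak was at 40.1% and 45.3% of the first in the wild type and at 90.6% and 92.1% in the mutant. CLN1 and CLN2 regained 1.12 to 1.83 units in the wild type and 0.40 to 0.45 in the mutant, where the second maximum was a shallow plateau. PCL2 regained 1.07 and 1.05 in the wild type, past its first peak (117% and 106%), and 0.22 and 0.34 in the mutant, to 68.9% and 72.2% of it. The wild-type PCL2 troughs lie near the background level.

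**Figure D3:**
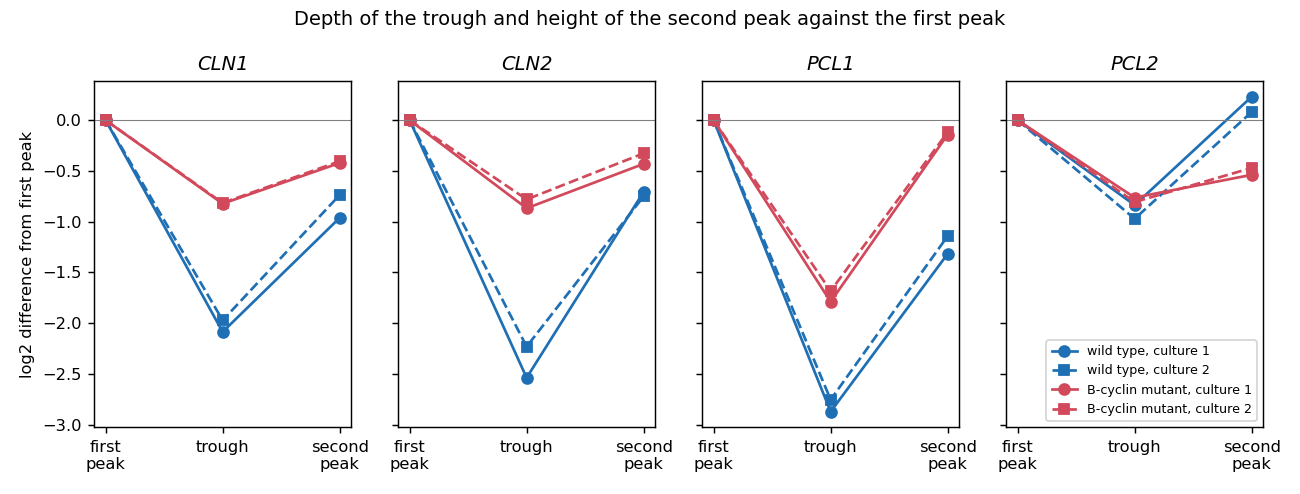
Trough and second peak of each gene relative to its first peak (log2 difference), 1 line per culture, wild type in blue and mutant in red. The mutant troughs are shallower for CLN1, CLN2 and PCL1, the mutant PCL1 returns to within 0.14 of its first peak, and PCL2 exceeds its first peak in the wild-type cultures alone.

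The highest array after the trough was later in the mutant for 3 of the genes, at the 16 min spacing of the arrays. No mutant profile had a distinct maximum there. Mutant PCL1 climbed and then stayed level, at 11.589, 11.590 and 11.551 from 230 min on in culture 1. In culture 2 it stood at 11.863, 11.845 and 11.847 from 222 min on. The time of its highest array is thus a plateau value too. For PCL1 it fell at 186 ± 5.66 min (SD, n = 2) in wild-type cultures and at 234 ± 17.0 min (SD, n = 2) in mutant cultures. For CLN2 it fell at 202 ± 17.0 and 250 ± 5.66 min, and for PCL2 at 162 ± 5.66 and 234 ± 28.3 min. In mutant culture 2 the CLN2 and PCL2 values were highest on the last array, at 254 min, so they are plateau values or cut off by the end of sampling. The cultures of the strains did not overlap in these 3 cases, but 2 against 2 cultures cannot give a two-sided exact permutation p below 0.333, which each reached. CLN1 had no distinct second peak time, with 234 ± 28.3 and 242 ± 5.66 min (exact permutation p = 1.0). Wild-type arrays at 174 min of culture 1 and 198 min of culture 2 were not analysed here, which leaves gaps beside these peaks.

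The timing of the first rise was not separated between strains for 3 of the genes. The time at which a profile crossed the middle between its lowest early value and its first peak averaged 72.7 ± 4.08 min in wild-type cultures against 69.1 ± 9.10 min in mutant ones for CLN1 (SD, n = 2 each), and the cultures overlapped for CLN1, CLN2 and PCL1 (exact permutation p = 0.667 each) but not for PCL2 (exact permutation p = 0.333, the smallest possible). Between cultures on the same sampling times it was earlier in the mutant in 8 of 8 comparisons, 4 genes in 2 pairs of cultures, with mutant minus wild-type times from -10.1 to -0.1 min. It was earlier in 7 of 8 with a smooth curve through the points. Within each culture PCL2 crossed first, at 53.9 to 72.6 min, then PCL1, CLN2 and CLN1. That order changed in 3 of 4 cultures when early values were set to at least the background level, so the order among the genes is not settled.

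Periodicity was tested with limma's F-test of a sine and a cosine term in each strain, treating the arrays of a time series as independent, which can make p-values too small. At the wild-type period of 104 min all 4 genes were periodic, with fitted peak-to-trough values (log2) of 2.38 ± 0.35 for PCL1, 2.12 ± 0.30 for CLN2, 1.75 ± 0.29 for CLN1 and 0.78 ± 0.20 for PCL2 (limma adjusted p from 0.000584 to 0.0177). PCL1 ranked 2nd, CLN2 12th, CLN1 37th and PCL2 470th of all genes. In the mutant the best period was 160 min, the longest one searched, so it may be set by that limit. All 4 genes passed there too, with 1.8 ± 0.37 for PCL1, 1.68 ± 0.37 for CLN2, 1.48 ± 0.34 for CLN1 and 0.84 ± 0.20 for PCL2 (limma adjusted p from 0.00124 to 0.00377). In the mutant PCL1 ranked 48th, CLN2 62nd, CLN1 99th and PCL2 412th. Mutant arrays ran from 30 to 254 or from 38 to 262 min, fewer than 2 such periods. A single rise followed by a plateau can therefore pass, and the mutant calls do not show a repeated cycle. Periodic genes made up 12.0% of all genes in the wild type against 13.6% in the mutant. No member passed without wild-type culture 2 in the wild type, a setting in which no other gene passed either. In the mutant none passed without mutant culture 1 or at the wild-type period, and 1 passed without mutant culture 2, when the best period was 131 min.

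In the wild type PCL2 parted from the other cyclin genes after the first wave. Over all arrays of a strain CLN1 and CLN2 correlated at r = 0.991 in the wild type (28 arrays) and 0.992 in the mutant (30 arrays), values that describe points sharing the same arrays and the same rise out of G1. From 126 min on, CLN1 and CLN2 still correlated at 0.970 in the wild type (16 arrays) and CLN2 and PCL1 at 0.961. PCL2 then had r of -0.012 with CLN1, 0.098 with CLN2 and 0.281 with PCL1. In the mutant over the same span (18 arrays) its r was 0.663, 0.744 and 0.530. PCL2 therefore followed a course of its own in the second wild-type cycle, and less so in the mutant.

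The genes with profiles most like each cyclin gene over the 58 arrays, after centring each culture, were taken by Pearson r. CSI2 was nearest to both CLN1 (r = 0.986) and CLN2 (r = 0.989). HSL1, GIN4, DUN1 and PRY2 followed for CLN1 (r = 0.976 to 0.968), and PRY2, GIN4, YOX1 and MCD1 for CLN2 (r = 0.976 to 0.968). Hsl1 and Gin4 are kinases of the bud neck and Mcd1 is a cohesin subunit. For PCL1 the nearest were YOX1 (r = 0.976), RDH54, MCD1, AXL2 and PRY2, and Yox1 is a repressor of M/G1 transcription. For PCL2 they were RSR1 (r = 0.925), GIC2, RNR1, YOX1 and GDH1. Rsr1 is a GTPase of bud site selection, Gic2 an effector of Cdc42 and Rnr1 the large subunit of ribonucleotide reductase. The highest r for PCL2 was lower than the lowest of the 5 for each of the other cyclin genes.

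The second wild-type peak of PCL2 fell at the time when PCL9 and SIC1, genes of the M/G1 transition, also had higher values than before. From 126 to 158 min in wild-type culture 1 and from 134 to 166 min in culture 2, PCL2 changed by 1.07 and 1.05 log2 units, ranking 41st and 39th of 5449 genes. It started near the background level, at 9.02 and 9.10. Over the same minutes it changed by -0.04 in mutant culture 1 and -0.26 in mutant culture 2. CLN1, over these minutes, changed by -0.17 and -0.16 in the wild type and CLN2 by 0.10 and -0.04. PCL1 lay between, with 0.45 and 0.31 in wild-type cells and -0.14 and 0.02 in the mutant. These minutes include the wild-type trough of CLN1, CLN2 and PCL1, at 142 or 150 min, so a fall and a rise offset each other. From 142 to 158 min in wild-type culture 1 CLN1 went from 9.135 to 9.569 and CLN2 from 9.334 to 10.303. PCL1 went from 8.763 to 9.873 and PCL2 from 9.587 to 10.085. These genes also rose from 150 to 166 min in culture 2. The interval from 126 or 134 min was chosen after the values were seen, so it carries no test.

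Over those minutes, the median change over all genes was 0.02 and 0.01 in the wild type and -0.01 in both mutant cultures. PCL9, a Pho85 cyclin gene expressed in M/G1, went from 8.83 to 11.50 in wild-type culture 1 and from 8.91 to 11.35 in culture 2, starting under the background level, and its mutant values of 8.06 to 8.28 were all under it. SIC1, which encodes an inhibitor of B-type cyclin kinase, changed by 1.93 and 1.92 in the wild type and by 0.64 and 0.69 in the mutant. In the wild type PCL2 changed by less than SIC1 and in the same direction, and SWI5 changed by -0.775 and -0.73. PCL9, SIC1 and SWI5 are shown here because of what is known of their timing or their link to PCL2, with their values in view.

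**Figure D4:**
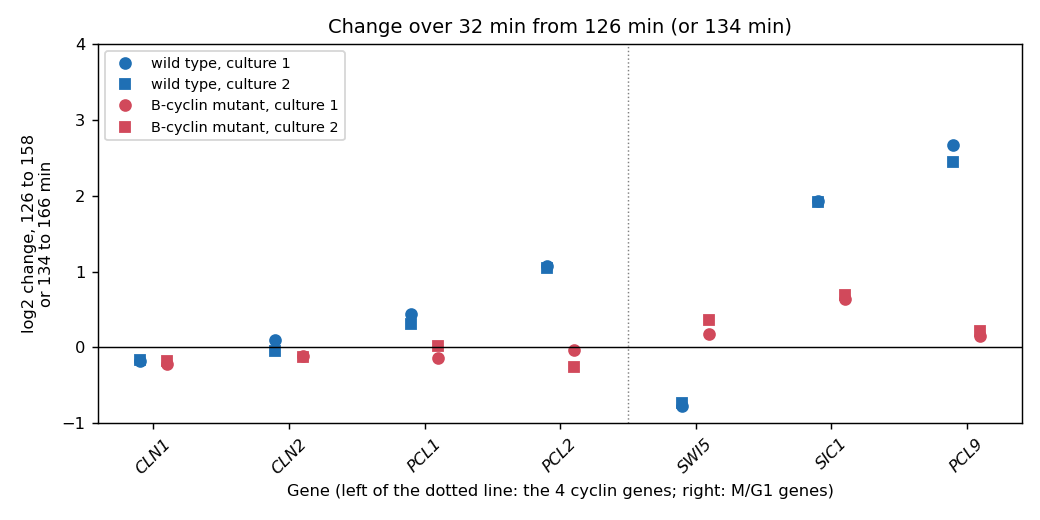
Log2 change in level from 126 to 158 min or from 134 to 166 min, by culture, for the 4 cyclin genes (left of the dotted line) and for SWI5, SIC1 and PCL9 (right). PCL2 changed by 1.07 and 1.05 in the wild type (blue) and by -0.04 and -0.26 in the mutant (red), and CLN1 by about the same small negative amount in all 4 cultures. In the wild type the interval includes the trough of CLN1, CLN2 and PCL1 at 142 or 150 min. PCL9 lay under the background level at both times in the mutant and at the first in the wild type. Wild-type PCL2 lay near that level at the first time.

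Other cyclin genes of the same kinases were mostly not called over the whole course. Of 9 other cyclin genes, 1 was higher and 2 lower in the mutant over the whole course, with a median difference of -0.15. Over all genes 5.69% were called higher and 5.07% lower. PCL5, whose product directs turnover of the activator Gcn4, was higher by 0.66 (limma adjusted p = 0.0088). CLN3, the G1 cyclin that acts upstream of CLN1 and CLN2, differed by -0.73 ± 0.15 (limma adjusted p = 0.0272). PCL9 was lower too, and as its mutant values lay under the background level, its difference of -1.23 understates the change. At 222 to 262 min 2 of the 9 were higher (PCL5 and PCL8) and 5 lower (CLN3, PCL6, PCL9, PCL10 and PHO80). Over all genes 19.0% were called higher and 15.8% lower in that window. The kinase gene CDC28 was higher over the whole course by 0.49 (limma adjusted p = 0.0107), and PHO85 differed by -0.06 and did not pass.

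Over the whole course, where 5.07% of all genes were called lower, 0 of 10 regulators of Start were higher and 2 lower. These were MSA1 (-0.82, limma adjusted p = 0.0027) and MSA2 (-0.51, limma adjusted p = 0.0117), which encode factors associated with SBF and MBF. SWI4, the DNA-binding part of SBF, differed by -0.23 (limma adjusted p = 0.428), SWI6 by 0.02, and WHI5, the repressor of SBF, by -0.21 (limma adjusted p = 0.366), none of them passing. At 126 to 166 min NRM1, which encodes a co-repressor of MBF, was higher by 0.74 (limma adjusted p = 0.00681), and MSA1 and MSA2 were lower, where 6.74% of all genes were called lower.

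Of 9 genes for targets and partners of these cyclins, 0 were higher and 2 lower at 126 to 166 min, FAR1 and CDC6. Over all genes 6.74% were called lower in that window. FAR1, whose product inhibits Cln kinase in the mating response, differed by -2.27 at 126 to 166 min and by -3.13 at 222 to 262 min. CDC6, a replication licensing gene, differed by -0.88 and -0.49 in the same windows. RVS167, an actin regulator and Pho85 substrate, was higher at 222 to 262 min by 0.37, and SIC1 differed by 0.18 over the whole course without passing (limma adjusted p = 0.207). At 174 to 214 min SIC1 was higher by 0.72 ± 0.14 (limma adjusted p = 0.0156), the only one of the 9 called higher there.

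Budding and wall genes of the SBF type were called higher in part, and in a way that depended on the window. At 126 to 166 min 12 of 20 were higher and 0 lower, with a median difference of 0.36 against 0.033 over all genes, and 8 did not pass. Of all genes 9.36% were called higher in that window. CSI2 led the 20 with 1.27, followed by SVS1 (0.94), SWE1 (0.86), which encodes a kinase that inhibits Cdc28, and AXL2 (0.76), a bud site gene. CLN1 and CLN2 lay above all 20 of them, and PCL1 above 18. At 174 to 214 min 5 were higher and 4 lower (median 0.18), where 15.8% of all genes were called higher and 11.1% lower. At 222 to 262 min 13 were higher and 1 lower, where 19.0% of all genes were called higher and 15.8% lower. In that window SVS1 (1.82), CRH1 (1.36) and AXL2 (1.32) stood near PCL1 (1.73). Of 14 MBF-type replication genes 3 were higher and 1 lower at 126 to 166 min, with a median of 0.16. These 14 include CLB5 and CLB6, which are disrupted in the mutant, and counts without them were not made. At 174 to 214 min 1 was higher and 8 lower, with a median of -0.50, and at 222 to 262 min 4 were higher and 1 lower.

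Other measured differences ran beside these results in the same windows. The a-cell markers were lower in the mutant for 5 of 5 genes over the whole course, with mean levels of 12.87 in the wild type against 10.56 in the mutant at 222 to 262 min. The share of all genes called lower over the whole course was 5.07%. The stress marker list (HSP12, HSP26, CTT1, GRE1, SPG1) averaged 8.99 in wild-type cells and 9.36 in the mutant at 126 to 166 min, and 9.02 and 10.67 at 222 to 262 min, with 4 of 5 genes higher in the mutant in the later window. Of all genes 19.0% were called higher in that window. The part of these markers in the differences of the cyclin genes was not tested.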

How the data were processed

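Linear probe set intensities were used as deposited. Per the submitters' processing notes the tool was affy 1.8.1, and how background was corrected and probes were summarised is not stated in what was used here. Intensities ran from 86.1 to 33787, and array means from 2067 to 2121, a common scale that was kept. Of 10928 probe sets, 5498 were named to 5449 S. cerevisiae genes, and the brightest was used for the 47 genes with more than 1. The 2 cultures per strain limit the precision of the strain comparisons. Analyses used R 4.3.3 with limma 3.58.1 on log2(intensity + 1), which compresses changes of dim probe sets. Culture means over times that both strains share were compared (2 cultures per strain, which the series design calls biological replicates). Calls needed an adjusted p under 0.05, and periodic calls also a 1.5-fold peak-to-trough. Periods from 60 to 160 min were searched on G1/S genes other than the members. Among them were the disrupted CLB5 and CLB6, and CSI2 and YOX1, whose profiles are close to those of members. The steps were tested on simulated data with the period given, so the search for the period was not covered. The simulated noise was drawn separately for each array, apart from a shift per culture. Likeness between neighbouring time points was therefore not covered either. The genes named are the members, fixed pathway lists and, for each member, its 5 most similar genes, and the members, lists and windows were chosen with earlier results of these data known. The results of 1 listed gene set are not reported here. Same-numbered cultures did not deviate together (r = -0.056).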

Additional observations from a re-analysis of the deposited data

Results flagged for a closer look

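For 3 of the genes the strain effect changed between time windows, by a direct test of that change from 62 to 118 min to 126 to 166 min (limma, n = 2 cultures per strain). The mutant-minus-wild-type difference widened by 0.75 for CLN1 (adjusted p = 0.00888) and by 0.85 for CLN2 (adjusted p = 0.00248). For PCL2 it changed by -0.32 (adjusted p = 0.042), where the later window includes the second wild-type peak of that gene. Each of the 3 lost its call when a wild-type culture was left out.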

How the results depend on the processing

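Of 384 recomputed values of single genes, 336 kept their direction and their side of the threshold, 35 lost the threshold, 10 gained it and 3 turned direction. The whole-course calls of CLN1, CLN2 and PCL1, and their calls at 222 to 262 min, held in all settings run. The number of the 4 genes called at 62 to 118 min (0) was 1 with windows set 16 min later and ranged from 0 to 3 when single cultures were left out. At 174 to 214 min (3) it ranged from 1 to 3, for the change after the first wave (3) from 0 to 3, for wild-type periodicity (4) from 0 to 3 and for mutant periodicity (4) from 0 to 1. Mutant periodicity gave 0 at the period of the wild type. For wild-type periodicity no gene at all passed without wild-type culture 2. When single cultures were left out, PCL1 at 30 to 54 min ranged from -0.121 (without wild-type culture 1) to 0.497, and PCL2 at 174 to 214 min from -0.008 (same culture) to 0.297, PCL2 at 126 to 166 min was -0.178 with later windows, and the second-peak time of CLN1 differed by -12 min without wild-type culture 2. With quantile normalization and with the sampling grid as a block PCL2 lost the call on its change after the first wave (adjusted p = 0.0717 and 0.0636). With all arrays and culture as a random block its whole-course difference passed (adjusted p = 0.0497).

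The cultures share only a number. With a replicate block PCL1 passed in the change after the first wave (0.34, adjusted p = 0.0323), all genes called at 126 to 166 min went from 877 to 511, and no other call of the 4 genes changed. Counts over all genes moved in both directions. Over the whole course 586 became 289 without wild-type culture 1 and 1807 with culture as a random block. At 222 to 262 min 1901 became 3265 with mutant culture 2 left out and 721 with wild-type culture 1 left out. For the change after the first wave 967 became 40 without wild-type culture 1, and mutant periodic genes went from 741 to 4 at the wild-type period. Fits without a culture assume that the lone one varies like the other strain's. The settings for the middle of the first rise (a floor at background and a spline) were chosen after seeing the data. Signal over background limits wild-type PCL1 and PCL2, which were above it on 21 of 28 arrays each.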
